A study of Homo sapiens with 6 samples.

Results

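The enzymes that hydroxylate and crosslink collagen were examined in U87-MG cells, an established human glioblastoma line. They comprised 10 genes of the 61731 genes and loci in the deposited table, and were taken by name: the lysyl oxidases LOX, LOXL1, LOXL2, LOXL3 and LOXL4, the lysyl hydroxylases PLOD1, PLOD2 and PLOD3, and the prolyl 4-hydroxylase subunits P4HA1 and P4HA2. RNA was sequenced from 3 libraries of negative control cells (genotype label "Normal control", U87_NC) and 3 libraries with the genotype label "CHRM Knockdown" (U87_KD), all of the line U87 and all labelled as glioblastoma. In the study, lentivirus delivered the knockdown of CHRM3, which encodes the muscarinic acetylcholine receptor M3, and which of its knockdown sequences the sequenced cells carried is not stated. Libraries of a group were treated as replicates by their numbers. In the knockdown-labelled group these might instead mark different knockdown sequences, and its SD would then include differences between sequences. The labels name an RNeasy kit and a SMARTer kit, where the study's methods name TRIzol and TruSeq. No label says that libraries of one group came from separate cultures, so the p-values below measure the spread between these libraries, which may be technical. Levels are TPM, the share of each gene among the transcripts of a library after division by length, so they can be compared between genes. How deeply each library was read cannot be recovered from TPM.

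Collagen chains are modified in the endoplasmic reticulum before they are secreted. Prolyl 4-hydroxylase, a tetramer of catalytic alpha subunits and the disulfide isomerase P4HB, makes the hydroxyproline that keeps the triple helix stable at body temperature. Lysyl hydroxylases make hydroxylysine, and outside the cell the copper-dependent lysyl oxidases turn lysine and hydroxylysine side chains into aldehydes that condense into crosslinks between collagen or elastin molecules. The hydroxylases need oxygen, iron, ascorbate and 2-oxoglutarate, and several of these genes are known targets of hypoxia-inducible factors.

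The level of the targeted gene was examined first. CHRM3 was at 0.02, 0.09 and 0.13 TPM in negative control replicates 1, 2 and 3, and at 0.13, 0.01 and 0.02 TPM in knockdown-labelled replicates 1, 2 and 3. The groups overlapped (exact two-sided permutation test, p = 0.80, where 3 libraries against 3 allow no p below 0.10), and a reduction of CHRM3 was not detectable at these levels near the rounding step of 0.01 TPM. The groups therefore rest on their labels, and each direction below is that of the knockdown-labelled libraries against the negative control.

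The labelled cell type was checked against marker genes. Of 8 glioma or astrocyte markers, the intermediate filament gene VIM was the most abundant, at 6574 ± 77.2 TPM in control cells against 7376 ± 115 TPM with the knockdown label (SD, n = 3 each). The adhesion receptor gene CD44 was at 597.3 ± 21.6 and 473.5 ± 12.6 TPM, whereas the stem cell filament gene NES was at 2.25 ± 0.281 and 3.58 ± 0.396 TPM and the astrocyte filament gene GFAP at 1.16 ± 0.219 and 1.13 ± 0.3 TPM (SD, n = 3 each). S100B, OLIG2, SOX2 and AQP4 stayed under 1 TPM in every library, with AQP4 at 0, so most astrocyte and glial lineage markers were absent or near 0. All 4 leukocyte markers and all 3 endothelial markers were under 1 TPM in every library, and CD3E and TYROBP were listed at 0. Of the epithelial markers, EPCAM was between 0.63 and 1.44 TPM and CDH1 at most 0.11 TPM.

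Of the 5 fibroblast markers, 4 were tested, and all 4 differed between the groups (limma adjusted p under 0.05, as described below). Of all tested genes, 36.1% did. The summed level of the list was 142.5, 140.2 and 145.9 TPM in the controls and 66.7, 70.0 and 70.2 TPM in the knockdown-labelled libraries. DCN, which encodes the proteoglycan decorin, fell from 61.2 ± 1.86 to 9.09 ± 1.75 TPM, LUM (lumican) from 30.4 ± 0.201 to 22.0 ± 1.91 TPM, and FAP, a membrane protease and on average the most abundant of the list, from 45.2 ± 0.678 to 27.6 ± 0.386 TPM (SD, n = 3 each). PDGFRB, a platelet-derived growth factor receptor, rose from 5.44 ± 0.118 to 10.1 ± 1.74 TPM, and PDGFRA was under 1 TPM in every library. These genes moved with the same contrast as the collagen enzymes, and their part in the results below was not tested. In bulk RNA, fewer cells of a kind and less RNA per cell cannot be told apart.

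All of the enzyme genes but LOXL4 were expressed in both groups, and their differences between the groups were divided within each class. PLOD2, LOXL1 and P4HA1 rose in the knockdown-labelled libraries, by 78.5%, 56.0% and 39.1% in mean TPM, while PLOD3 fell by 20.7% and LOXL2 fell by 11.8%. P4HA2 fell by 6.53%, and its call was lost in 10 of 18 alternatives, in some of which its fold change was about as large. LOX, LOXL3 and PLOD1 did not pass the test, and LOXL4 was near 0. Differences were tested with limma on log2(TPM + 1) over the 13722 genes that averaged 1 TPM or more, and a gene was called at a Benjamini-Hochberg adjusted p under 0.05. Adding 1 before the logarithm shrinks the fold changes of genes at low levels relative to their TPM ratios.

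Of the 10 genes, 9 were tested, 6 were called, 3 higher and 3 lower, and 3 were not. Of all tested genes 36.1% were called, 12.1% as higher and 24.0% as lower. In 8 of the 9 tested genes the 3 values of one group lay wholly above or below those of the other, as they did in 50.2% of all tested genes. None of the 9 reached an absolute log2 fold change of 1 in the limma fit together with the adjusted p, against 1.87% of all tested genes. The median log2 fold change was -0.05 over the 9 genes and -0.06 over all tested genes. The split of all calls depended on the scaling, since 3295 genes were lower and 1660 higher in TPM as deposited, and 2249 lower and 2306 higher after median-of-ratios scaling, which moved the median log2 fold change of all genes by 0.062. A larger absolute log2 fold change than that of PLOD2 was found in 4.4% of tested genes, than that of LOXL1 in 7.02%, and than that of P4HA1 in 12.7%.

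**Figure D1:**
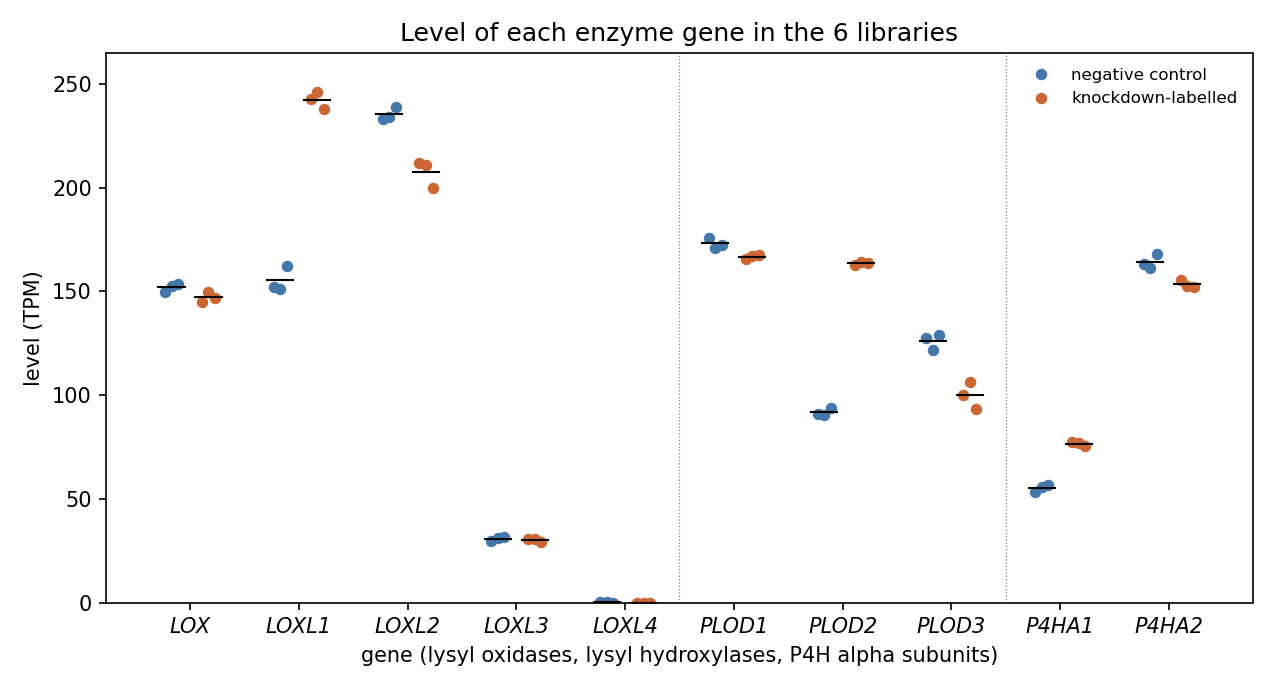
Level in TPM (linear axis) of each of the 10 enzyme genes in each library, with blue points for the negative control, orange points for the knockdown-labelled libraries, black lines for group means and dotted lines between the enzyme classes. PLOD2, LOXL1 and P4HA1 lie higher in all 3 knockdown-labelled libraries, PLOD3 and LOXL2 lie lower, and LOXL4 is near 0.

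**Figure D2:**
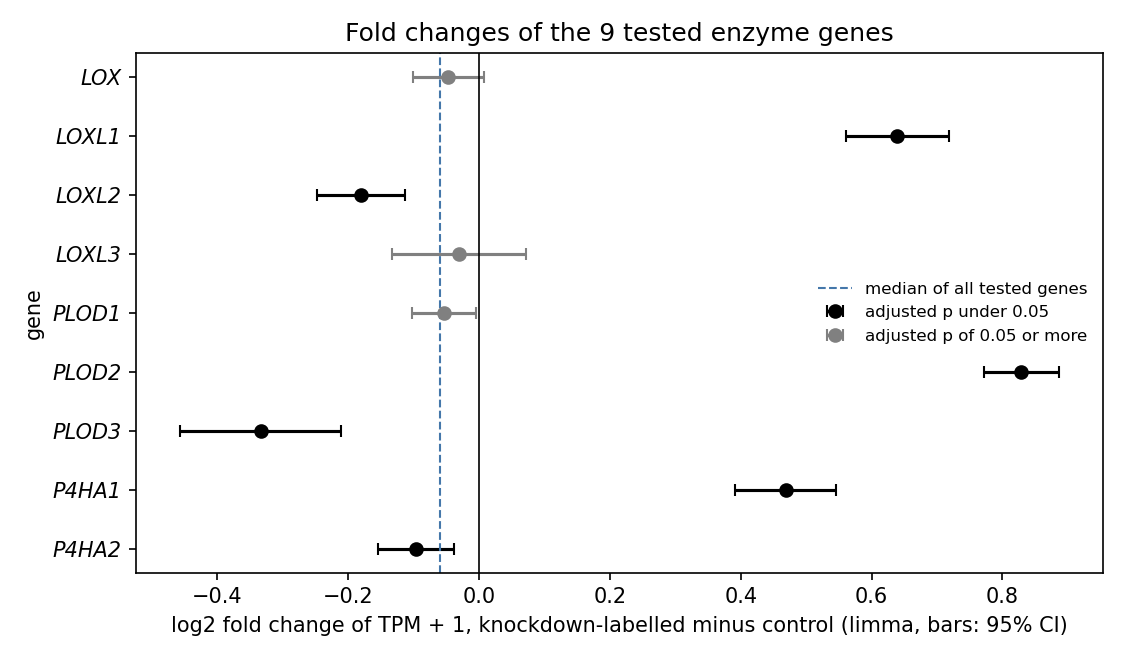
Log2 fold change of TPM + 1 (knockdown-labelled minus control, limma) of the 9 tested enzyme genes, with 95% confidence intervals as bars, black for an adjusted p under 0.05 and grey otherwise. The dashed line is the median of all tested genes, -0.06, near which LOX, LOXL3 and PLOD1 lie.

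The order of the levels differed between the groups. In the controls LOXL2 was highest, followed by PLOD1, then by P4HA2, LOXL1 and LOX, of which each neighbouring pair overlapped in range, then by PLOD3, PLOD2, P4HA1, LOXL3 and LOXL4. In the knockdown-labelled libraries the order was LOXL1, LOXL2, PLOD1, PLOD2, P4HA2, LOX, PLOD3, P4HA1, LOXL3 and LOXL4, and the ranges of no neighbouring pair overlapped. LOXL1 thus moved from rank 4 to rank 1 and PLOD2 from rank 7 to rank 4 of the 10 genes.

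Among the lysyl oxidases, LOX is the founding member of the family and the main crosslinking enzyme of fibrillar collagen. It lies on chromosome 5 from 122063195 to 122078360 on the minus strand (GENCODE 29, GRCh38, as for all genes below). Its level was 150, 152.4 and 153.6 TPM in control replicates 1, 2 and 3 and 144.8, 149.8 and 146.7 TPM in knockdown-labelled replicates 1, 2 and 3. All 3 knockdown-labelled values lay under the lowest control, but the log2 fold change of -0.05 (95% interval -0.10 to 0.01) did not pass the test (limma adjusted p = 0.158), and its sign turned under median-of-ratios and quantile scaling. SRFBP1, which shares 2.49% of the exon bases of LOX on the opposite strand, was at 9.61 ± 0.137 and 10.3 ± 0.679 TPM (SD, n = 3 each) and was not called.

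LOXL1 is the family member tied most closely to elastic fibres. It lies on chromosome 15 from 73925989 to 73952137 on the plus strand. Its level was 152.2, 151.4 and 162.4 TPM in the controls and 242.8, 246.2 and 237.8 TPM in the knockdown-labelled libraries. The lowest knockdown-labelled value stood well above the highest control. The means were 155.3 ± 6.14 and 242.3 ± 4.23 TPM (SD, n = 3 each), and the log2 fold change was 0.64 (SE 0.0327, limma adjusted p = 4.38e-05).

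LOXL1 overlaps a gene on the opposite strand, LOXL1-AS1, and 9.21% of the annotated exon bases of LOXL1 are also exon bases of LOXL1-AS1. The antisense gene was at 14.7, 15.5 and 17.4 TPM in the controls and at 19.7, 20.0 and 21.0 TPM in the knockdown-labelled libraries. It rose as well, without overlap, by 0.33 on the log2 scale (limma adjusted p = 0.0102). The strand used in counting is not stated, so reads of the shared bases cannot be told apart.

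LOXL2, which oxidises lysines of fibrillar and of basement membrane collagen, was at 233.1, 234.1 and 239.0 TPM in the controls and at 212.0, 210.8 and 200.1 TPM in the knockdown-labelled libraries. It was the most abundant of the 10 genes in the controls, and each knockdown-labelled library lay under every control. The means were 235.4 ± 3.18 and 207.7 ± 6.56 TPM (SD, n = 3 each), and it fell by 0.18 on the log2 scale (SE 0.0280, limma adjusted p = 0.00347). The log2 fold change was -0.11 after median-of-ratios scaling (adjusted p = 0.0199) and -0.10 with a correction for GC content and length (adjusted p = 0.0235). The call was lost when a term for the replicate number was added to that correction (adjusted p = 0.0657). The gene ENTPD4, which shares 2.10% of the exon bases of LOXL2 on the same strand, fell from 14.9 ± 0.333 to 11.45 ± 0.243 TPM, and LOXL2-AS1, on the opposite strand with 3.12%, was at 1.38 ± 0.225 and 0.96 ± 0.19 TPM and not called (SD, n = 3 each).

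LOXL3 and LOXL4 complete the family. LOXL3 ranged from 29.7 to 31.8 TPM in the controls and from 29.1 to 30.8 TPM in the knockdown-labelled libraries, and the groups overlapped (log2 fold change -0.03, limma adjusted p = 0.615). It overlaps HTRA2 and DOK1 on the opposite strand, which share 14.3% and 4.95% of its exon bases and were both lower in the knockdown-labelled libraries, with HTRA2 at 42.3 ± 1.08 and 32.4 ± 1.02 TPM and DOK1 at 39.3 ± 1.93 and 32.5 ± 0.306 TPM (SD, n = 3 each). LOXL4 was at 0.05, 0.06 and 0.03 TPM in the controls and at 0.02, 0.01 and 0.01 TPM in the knockdown-labelled libraries. These values are a few rounding steps from 0 and under the limit for testing, and no fold change is given.

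The 5 lysyl oxidase genes summed to 573.6 ± 11.7 TPM in control libraries against 627.3 ± 12.2 TPM under the knockdown label (SD, n = 3 each), which is 9.35% more, without overlap (as a log2 ratio 0.13, and 0.20 after median-of-ratios scaling). The share of LOXL1 in that sum went from 27.1% to 38.6%, that of LOXL2 from 41.0% to 33.1%, that of LOX from 26.5% to 23.5% and that of LOXL3 from 5.38% to 4.81%. Each of these 4 shares was separated between the groups in the 6 libraries. Shares of one sum are tied, so the larger share of LOXL1 by itself lowers the others. LOX and LOXL3 did not pass the test in level. A share within a library is not moved by a single factor for that library, such as that of median-of-ratios scaling, but can move under quantile scaling. Sums over genes chosen with results known are given as a description, with no test.

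The lysyl hydroxylases differ in the lysines they modify. PLOD1 acts mainly on lysines of the triple helix, PLOD2 is the enzyme of the telopeptide lysines, whose hydroxylation leads to stable crosslinks, and PLOD3 also transfers sugars to hydroxylysine. PLOD1 lies on chromosome 1 from 11934205 to 11975538, PLOD2 on chromosome 3 from 146069440 to 146163653, and PLOD3 on chromosome 7 from 101205977 to 101218420.

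As a description, the bases before the starts of the enzyme genes were searched for the core of the hypoxia response element (ACGTG or GCGTG). The AP-1 site TGANTCA was searched as well, each motif on both strands and in RefSeq promoters of build GRCh38.p14. The table held 9 of the 10 genes, all but LOXL2, and for a gene with several entries the most upstream start was used. In the 250 bases before the start, 4 genes held the hypoxia core, LOX with 4 matches (2 to 4 over its 3 entries), PLOD2 with 3, PLOD1 with 2 and P4HA1 with 1. Of these, 2 matches of LOX, 1 of PLOD1 and that of P4HA1 lie in annotated UTR. LOXL1, LOXL3, LOXL4, PLOD3 and P4HA2 held none, although the other LOXL3 entry held 1, and all 250 bases searched for LOXL1, PLOD3 and P4HA2 lie in annotated exons. No entry used held the AP-1 site. The hypoxia core was in 43.2% of all 34943 promoters and in 55.2% of the 14314 promoters of tested genes, and the AP-1 site in 6.59% and 4.70%. Of all promoters, 7.73% held 3 or more matches to the hypoxia core. That share was not counted among promoters of tested genes, which held the core more often. A match describes letters only, and the PLOD1 and LOX promoters held the core while neither gene passed the test. The sequences are shown 5′ to 3′ on the minus strand, with matches on either strand in capitals, for PLOD2 whole (chr3:146161185-146161434, in an intron of a longer PLOD2 transcript), for LOX upstream of the first annotated exon (chr5:122078361-122078509) and for P4HA1 as the 30 bases around its match (chr10:73096935-73096964, in annotated 5′ UTR).
PLOD2: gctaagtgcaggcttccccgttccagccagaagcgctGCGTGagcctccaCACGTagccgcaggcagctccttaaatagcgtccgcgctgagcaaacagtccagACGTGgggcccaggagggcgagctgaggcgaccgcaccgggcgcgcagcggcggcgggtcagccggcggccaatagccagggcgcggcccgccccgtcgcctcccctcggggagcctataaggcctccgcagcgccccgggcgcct
LOX: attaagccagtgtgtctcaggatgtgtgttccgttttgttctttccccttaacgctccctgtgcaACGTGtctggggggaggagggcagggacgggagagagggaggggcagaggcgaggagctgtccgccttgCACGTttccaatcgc
P4HA1: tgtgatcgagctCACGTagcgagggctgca

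PLOD2 was at 90.9, 90.3 and 93.9 TPM in the controls and at 162.9, 164.4 and 163.8 TPM in the knockdown-labelled libraries. No value of one group came near the other, and within the knockdown-labelled libraries the values differed by less than 2 TPM. The means were 91.7 ± 1.89 and 163.7 ± 0.740 TPM (SD, n = 3 each), and the log2 fold change was 0.83 (SE 0.0235, 95% interval 0.77 to 0.89, limma adjusted p = 5.14e-06), the largest of the 9 tested genes in the fit and in each alternative. An antisense gene that overlaps PLOD2 was at most at 0.47 TPM and shares no exon base with it.

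PLOD3 was at 127.8, 121.6 and 129.0 TPM in the controls and at 99.9, 106.5 and 93.4 TPM in the knockdown-labelled libraries. The highest knockdown-labelled value was under the lowest control, and the knockdown-labelled values were the more spread. The means were 126.1 ± 3.98 and 99.95 ± 6.55 TPM (SD, n = 3 each), and it fell by 0.33 on the log2 scale (SE 0.0513, limma adjusted p = 0.00334). Its exons share 7.56% of their bases with ZNHIT1 on the opposite strand, which was at 179.3 ± 4.33 and 173.9 ± 2.31 TPM (SD, n = 3 each) and did not pass the test (adjusted p = 0.227).

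PLOD1 was at 175.8, 171.2 and 172.5 TPM in the controls and at 165.7, 167.3 and 167.4 TPM in the knockdown-labelled libraries. The groups did not overlap, yet the log2 fold change of -0.05 missed the threshold (limma adjusted p = 0.0832). It passed with mitochondrial transcripts left out of the total (adjusted p = 0.0406) and turned in sign under median-of-ratios and quantile scaling and under the correction for GC content and length.

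The 3 lysyl hydroxylases summed to 391.0 ± 6.84 TPM in control libraries, and under the knockdown label to 430.5 ± 6.97 TPM (SD, n = 3 each), or 10.1% more, without overlap (0.14 on the log2 scale, where median-of-ratios scaling gave 0.21). PLOD2 went from the smallest share of the sum, 23.5%, to 38.0%, close to the 38.8% of PLOD1, while PLOD3 went from 32.2% to 23.2%. The ratio of PLOD2 to PLOD1 inside a library was 0.517, 0.528 and 0.544 in the controls and 0.983, 0.982 and 0.978 in the knockdown-labelled libraries. Both genes were thus at nearly equal levels in each knockdown-labelled library, whereas in each control PLOD1 was clearly the higher.

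**Figure D3:**
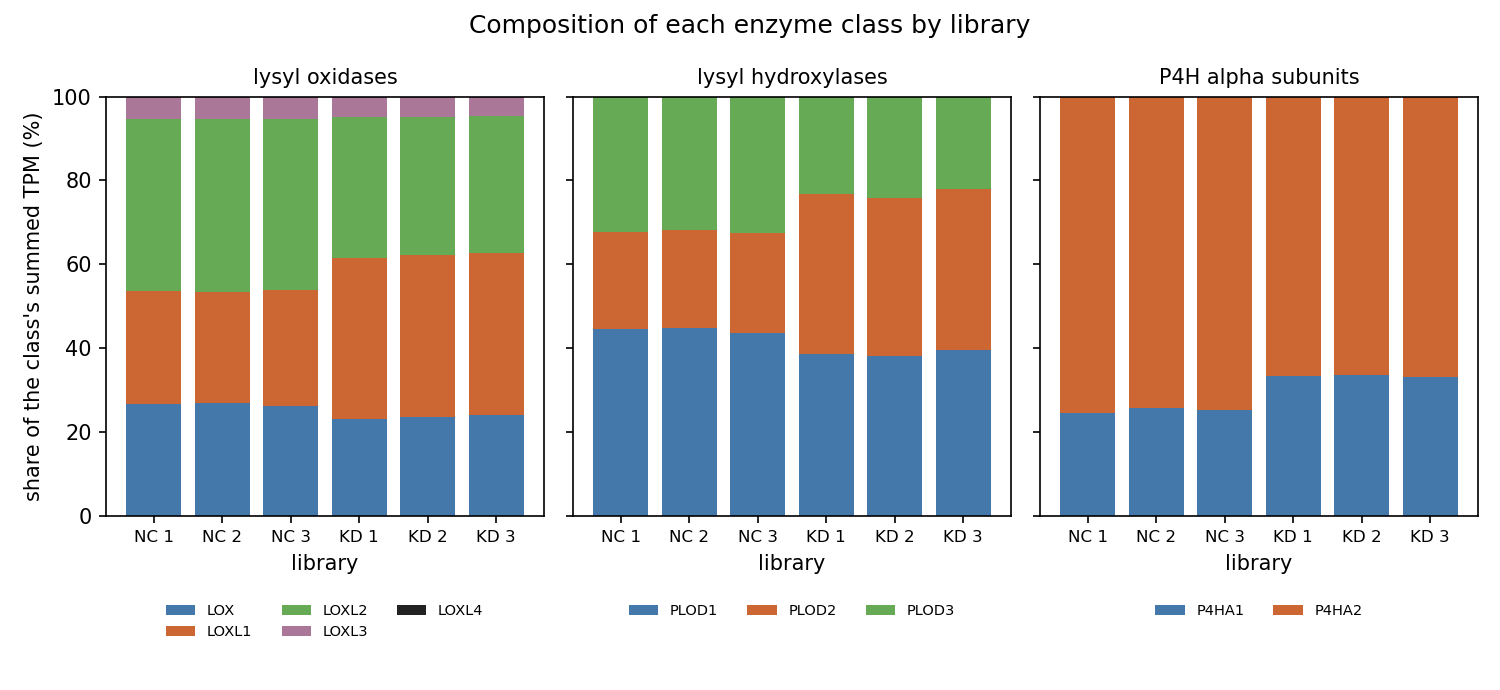
Share of each gene in the summed TPM of its enzyme class (percent, bars stacked to 100) in negative control (NC) and knockdown-labelled (KD) libraries 1 to 3. LOXL1, PLOD2 and P4HA1 take a larger share in each knockdown-labelled library, the other genes of their class take a smaller one, and LOXL4 is too small to be seen.

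P4HA1 and P4HA2 encode alternative catalytic subunits of collagen prolyl 4-hydroxylase. P4HA3, a further alpha subunit gene named after its values were seen, is in no sum or ratio below. It was at 0.4, 0.14 and 0.34 TPM in the controls and at 0.31, 0.55 and 0.42 TPM in the knockdown-labelled libraries. Its groups overlapped, and it was under the limit for testing. P4HA1 lies on chromosome 10 from 73007217 to 73096974, and P4HA2 on chromosome 5 from 132191838 to 132295315. P4HA1 was at 53.2, 55.6 and 56.6 TPM in the controls and at 77.6, 77.0 and 75.4 TPM in the knockdown-labelled libraries. The groups were separated by more than the spread within either. The means were 55.1 ± 1.72 and 76.7 ± 1.12 TPM (SD, n = 3 each). On the log2 scale it rose by 0.47 (SE 0.0321, limma adjusted p = 1.36e-04).

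P4HA2, the more abundant subunit in every library, was at 163.4, 161.2 and 168.2 TPM in the controls and at 155.8, 152.8 and 152.1 TPM in the knockdown-labelled libraries. All knockdown-labelled values lay under the lowest control. The means were 164.3 ± 3.54 and 153.6 ± 1.96 TPM (SD, n = 3 each), and it fell by 0.10 on the log2 scale (SE 0.0242, limma adjusted p = 0.0227). The call was lost after median-of-ratios scaling (log2 fold change -0.03, adjusted p = 0.419), under quantile scaling, with no trend, with a term for the replicate number, under the correction for GC content and length, and without control replicate 1 (adjusted p = 0.06), control replicate 3 (0.0622), knockdown-labelled replicate 2 (0.0667) or knockdown-labelled replicate 3 (0.0637). With no trend or with the replicate term the log2 fold change of P4HA2 itself stayed at -0.0966. SLC22A4, which overlaps P4HA2 on the opposite strand without shared exon bases, fell from 9.26 ± 0.932 to 4.62 ± 0.394 TPM (SD, n = 3 each). Of the 17 genes that overlap any of the enzyme genes, 9 were under 1 TPM in every library, among them the antisense gene of PLOD2.

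The sum of both subunits went from 219.4 ± 4.61 to 230.2 ± 2.97 TPM (SD, n = 3 each), 4.93% more, without overlap (a log2 ratio of 0.07, which median-of-ratios scaling moved to 0.14). The ratio of P4HA2 to P4HA1 was 3.07, 2.90 and 2.97 in the controls and 2.01, 1.99 and 2.02 in the knockdown-labelled libraries. P4HB, the shared beta subunit, fell from 782.0 ± 15.9 to 634.3 ± 3.51 TPM (SD, n = 3 each; log2 fold change -0.30, limma adjusted p = 9.30e-05). The ratio of P4HA1 plus P4HA2 to P4HB accordingly went from 0.281 ± 0.00337 to 0.363 ± 0.00612 (SD, n = 3 each), without overlap, so that P4HB remained in excess of the alpha subunits in messenger RNA in every library.

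**Figure D4:**
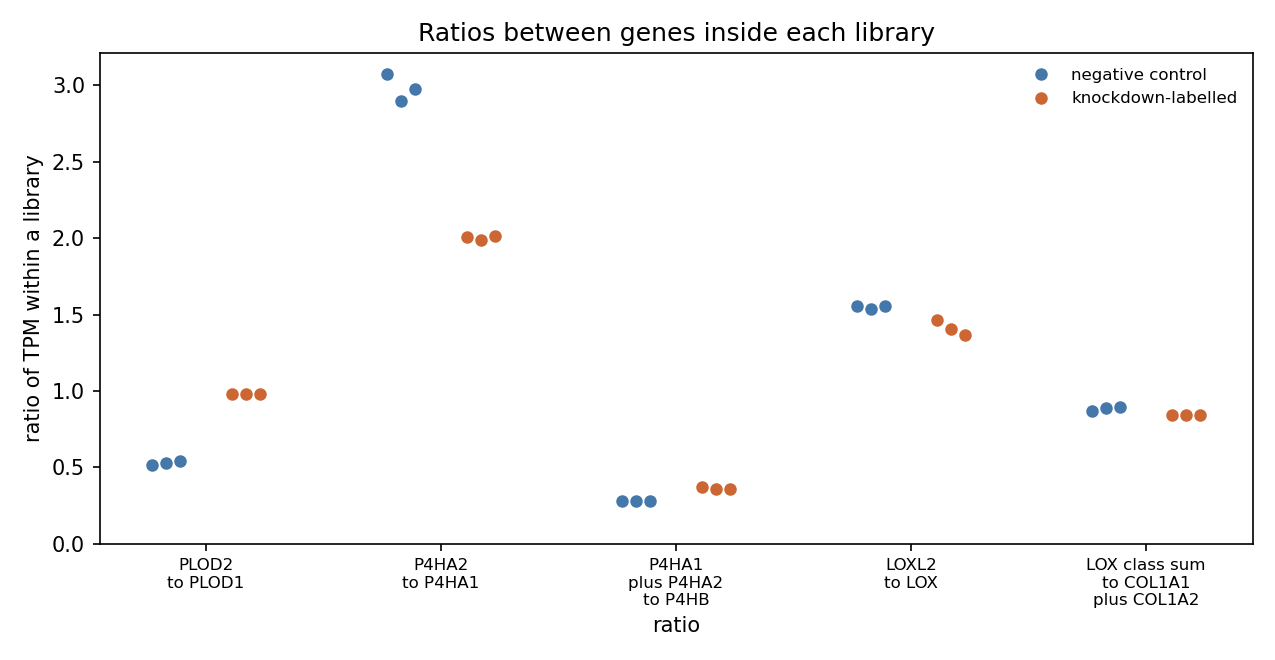
Ratios of TPM between genes inside each library (no unit, linear axis from 0), with blue points for the negative control and orange points for the knockdown-labelled libraries. The groups do not overlap in any of the 5 ratios, and PLOD2 to PLOD1 moves from 0.530 to 0.981 in the mean.

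The longest annotated transcript of PLOD2 had the lowest GC content of the 10 genes, 34.4%, that of P4HA1 had 40.8% and that of LOXL1 the highest, 67.6%. With the correction for GC content and length, the log2 fold changes were 0.90 for PLOD2, 0.53 for P4HA1, 0.67 for LOXL1, -0.26 for PLOD3 and -0.10 for LOXL2, all still called. P4HA2 lost its call under it, and LOXL3 and PLOD1, not called before or after, turned in sign.

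The genes with the most similar profiles over the 6 libraries were taken from the 11472 tested protein-coding genes by the root mean square difference of mean-centred log2(TPM + 1). For LOXL1 they were CSF1R (0.0275), ENO2 (0.0324) and TUBB3 (0.0351). For PLOD2 they were LIMA1 (0.0144), ALDOC (0.0174) and EFNB2 (0.0177), and for P4HA1 they were MYOF (0.0156), RTL8C (0.0209) and GALNT10 (0.0220). ENO2 and ALDOC encode glycolytic enzymes, and rose from 140.6 ± 1.97 to 214.0 ± 1.57 TPM and from 14.8 ± 0.419 to 26.8 ± 0.535 TPM (SD, n = 3 each). The direction of such genes follows from their choice by profile, and glycolytic genes were not tested as a list.

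Of 18 listed partners of hydroxylation and folding in the endoplasmic reticulum 16 were tested, 7 were lower, 1 was higher and 8 were not called, with a median log2 fold change of -0.06, equal to that of all tested genes. After median-of-ratios scaling 4 were lower and 2 higher, beside 2249 lower and 2306 higher of all 13722 tested genes under that scaling. SERPINH1, a collagen chaperone gene named after its values were seen, is among the 7 lower (342.3 ± 2.40 to 323.5 ± 9.01 TPM, SD, n = 3 each, log2 fold change -0.08, limma adjusted p = 0.0394). Its call was lost in 10 of 18 alternatives and its sign turned in 2 more. For comparison with the counts of this list and of those below in TPM as deposited, 24.0% of all tested genes were lower and 12.1% higher. The cyclophilin gene PPIB, the most abundant at 1013 ± 3.18 and 987.4 ± 12.7 TPM (SD, n = 3 each), was not called (limma adjusted p = 0.0941), its sign turned under median-of-ratios scaling, and it was called as lower with mitochondrial transcripts left out of the total (adjusted p = 0.0448). FKBP7, a peptidyl-prolyl isomerase gene, rose from 12.3 ± 0.678 to 23.4 ± 1.77 TPM (log2 fold change 0.88). TMEM38B, which encodes an ion channel of the endoplasmic reticulum, fell from 61.5 ± 2.29 to 36.5 ± 3.87 TPM (log2 fold change -0.74), and P3H1, a prolyl 3-hydroxylase gene, from 67.8 ± 0.801 to 55.3 ± 1.90 TPM (log2 fold change -0.29). FKBP10, a chaperone partner of lysyl hydroxylation chosen here after its values were seen, fell from 213.8 ± 1.28 to 176.8 ± 5.34 TPM (SD, n = 3 each).

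Of 12 collagen and elastin genes, the substrates of the enzymes, 5 were tested, 4 were higher and 1 was lower, and their median log2 fold change was 0.22. COL1A2, the most abundant, rose from 342.2 ± 3.47 to 398.3 ± 8.78 TPM (log2 fold change 0.22), and COL1A1, the other chain of type I collagen, was the remaining tested gene, is named after its values were seen, and rose from 305.5 ± 6.67 to 345.3 ± 6.96 TPM. The type V chains COL5A1 and COL5A2 rose by log2 fold changes of 0.76 and 0.34, COL5A1 from 50.7 ± 0.350 to 86.7 ± 0.277 TPM. The remaining type V chain, COL5A3, named after its values were seen, was under the limit for testing, at 0.51, 0.57 and 0.64 TPM in the controls and lower without overlap, at 0.18, 0.31 and 0.32 TPM, in the knockdown-labelled libraries. The basement membrane chain COL4A2 fell from 16.8 ± 0.727 to 9.20 ± 1.09 TPM (log2 fold change -0.81), and COL4A1, which pairs with it and was also named after its values were seen, was at most at 0.08 TPM in any library. Elastin (ELN), a substrate of LOXL1, was under the limit for testing, at 0.02, 0.03 and 0.11 TPM in the controls and 0.91, 0.48 and 0.37 TPM in the knockdown-labelled libraries, and was singled out after its values were seen. The lysyl oxidase sum relative to COL1A1 plus COL1A2 went from 0.886 ± 0.0132 to 0.844 ± 0.00244 (SD, n = 3 each), without overlap.

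Of 14 genes of extracellular processing and activation 7 were tested, 4 were higher and 2 were lower, with a median log2 fold change of 0.26. Fibronectin (FN1), which binds lysyl oxidase and its activating protease and was the most abundant, fell from 987.4 ± 12.4 to 663.5 ± 11.7 TPM (log2 fold change -0.57, limma adjusted p = 7.41e-06). BMP1, the protease that cleaves the LOX proenzyme, named after its values were seen, was at 33.9 ± 0.0721 and 34.5 ± 0.511 TPM (SD, n = 3 each) and was not called (adjusted p = 0.570), but passed as higher after median-of-ratios scaling (log2 fold change 0.09, adjusted p = 0.0490). THBS1 (thrombospondin 1) rose from 0.997 ± 0.00577 to 4.92 ± 0.478 TPM (log2 fold change 1.56), and the procollagen protease enhancer PCOLCE2 from 44.2 ± 3.29 to 62.7 ± 3.01 TPM (log2 fold change 0.50). The limit for testing applies to the mean of all 6 libraries, so THBS1, with a control mean under 1 TPM, was tested through its knockdown-labelled values. It was still called with no limit, and it counts among the 4 higher genes and in the median. FBLN5, a fibulin named after its values were seen, was at 1.27 ± 0.217 and 0.443 ± 0.0611 TPM (SD, n = 3 each), without overlap. It was left untested by the same limit on the mean. POSTN (periostin), at 4.58 ± 0.173 and 2.68 ± 0.745 TPM (SD, n = 3 each), was called as lower (adjusted p = 0.0221) but lost the call in 6 of 17 alternatives: with no limit on low values (adjusted p = 0.0660), with the correction for GC content and length and a term for the replicate number (0.0637), and without control replicate 1 (0.0689), control replicate 2 (0.0606), control replicate 3 (0.0565) or knockdown-labelled replicate 2 (0.0561).

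Of 6 genes for the supply of copper and ascorbate 4 were tested, 1 was higher and 1 was lower, with a median log2 fold change of -0.01. The copper chaperone ATOX1 rose from 260.8 ± 8.18 to 308.0 ± 12.1 TPM (log2 fold change 0.24). The copper importer SLC31A1 was at 18.8 ± 0.540 and 16.45 ± 0.970 TPM (SD, n = 3 each), and its call as lower (limma adjusted p = 0.0365) was lost in 12 of 18 alternatives, among them median-of-ratios scaling (adjusted p = 0.123) and the removal of any single library but knockdown-labelled replicate 2.

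Hypoxia-responsive genes and oxygen sensors were listed because PLOD2, P4HA1, P4HA2 and LOX are known hypoxia targets. Like the lists above, this list was chosen with earlier results of these data known, so its counts and median are a description. Of 15 genes 14 were tested, 8 were higher and 2 were lower, and the median log2 fold change was 0.42. The carbonic anhydrase gene CA9 was at 47.5, 50.6 and 50.6 TPM in the controls and 162.4, 160.3 and 158.4 TPM in the knockdown-labelled libraries (log2 fold change 1.67, limma adjusted p = 1.00e-06). BNIP3, a mitophagy receptor gene, rose from 124.4 ± 2.19 to 392.2 ± 4.49 TPM (log2 fold change 1.65), NDRG1 from 80.5 ± 20.1 to 197.5 ± 5.36 TPM (log2 fold change 1.31) and the pyruvate dehydrogenase kinase gene PDK1 from 6.26 ± 0.558 to 15.0 ± 0.656 TPM (log2 fold change 1.14; SD, n = 3 each). VEGFA, a classic hypoxia target and on average over the 6 libraries the most abundant of the list, was at 304.8 ± 7.04 and 313.2 ± 1.17 TPM (SD, n = 3 each) and overlapped between groups. It was not called in TPM as deposited (log2 fold change 0.04, adjusted p = 0.206) and was called as higher after median-of-ratios scaling (log2 fold change 0.11, adjusted p = 0.00850).

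Within this list the genes did not move as one. ADM, another hypoxia target, was at 111.7 ± 2.44 and 101.6 ± 0.390 TPM and was called as lower (log2 fold change -0.13, limma adjusted p = 0.00688), as was the prolyl hydroxylase EGLN2 (log2 fold change -0.50), but ADM lost its call after median-of-ratios scaling (adjusted p = 0.0791). HIF1A rose from 168.4 ± 1.98 to 200.9 ± 6.06 TPM (SD, n = 3 each). EGLN1, at 9.56 ± 2.49 and 14.6 ± 2.07 TPM (SD, n = 3 each), is counted among the 8 higher genes (log2 fold change 0.58, adjusted p = 0.0416), but lost its call in 10 of 18 alternatives, with an adjusted p of at most 0.12. These 4 genes were singled out after their values were seen. The remaining higher genes, SLC2A1 and ANKRD37, also named after their values were seen, had log2 fold changes of 1.02 and 0.94. Both kept their call in all 18 alternatives. Among the enzymes, PLOD2 and P4HA1 were higher, LOX was not called, and P4HA2 was lower with the limits given above. Whether the hypoxia genes and the enzymes share a cause was not tested, and no label gives an oxygen level.

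**Figure D5:**
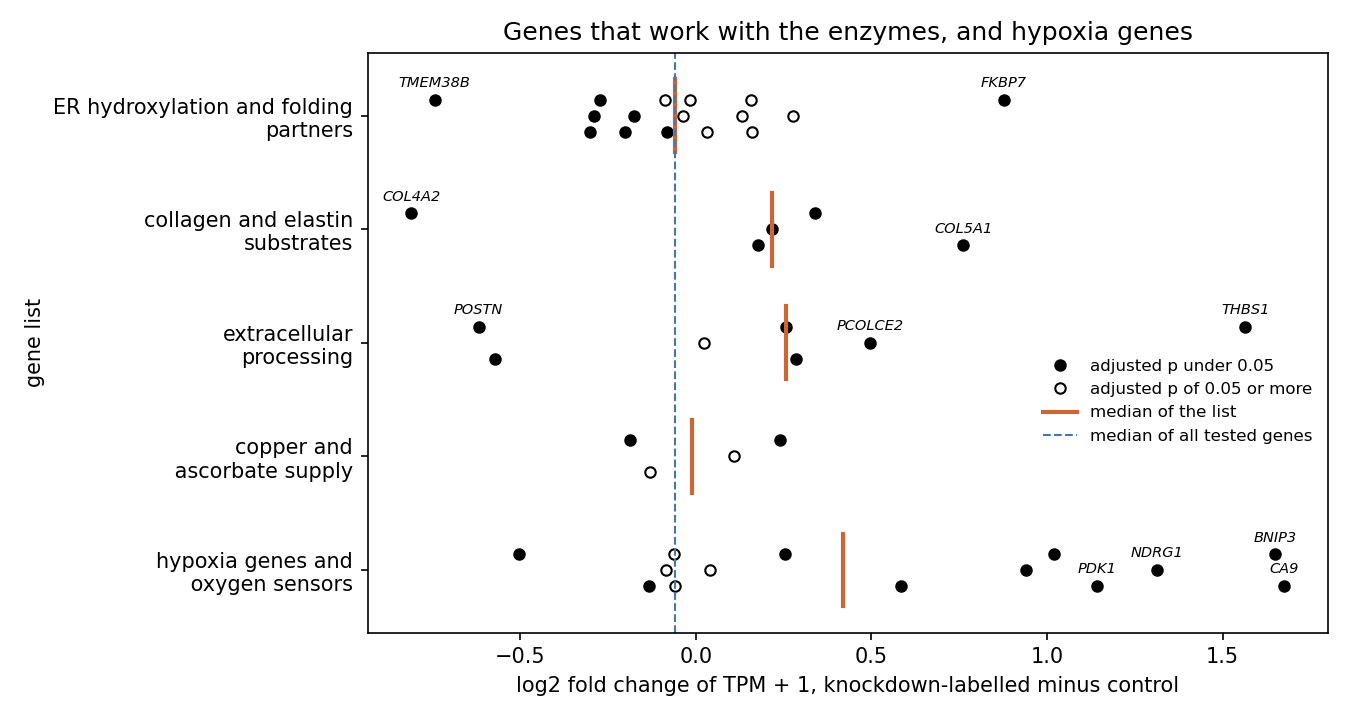
Log2 fold change of TPM + 1 (knockdown-labelled minus control, limma) of each tested gene in the 5 lists of related genes, filled for an adjusted p under 0.05 and open otherwise, with the median of each list as an orange line and that of all tested genes as a dashed line at -0.06. The hypoxia list has the highest median, 0.42, and the partners in the endoplasmic reticulum (ER) have a median of -0.06. All 5 lists were chosen with earlier results of these data known.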

How the data were processed

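RNA of U87-MG cells was sequenced in 6 libraries, 3 per group. The authors deposited a table of TPM for each gene, with 2 decimals. The submitters' processing notes name fastp, RSEM and the build GRCh38.p13, while versions, the annotation, the strand of counting and filters are not given in the sources used here. TPM is a share, so changes in abundant genes move all others, and no depth or counting error can be given. Columns were assigned by name, with 0 columns left over, and gene positions came from GENCODE 29.

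Log2(TPM + 1) of the 13722 genes that averaged 1 TPM or more was fitted with limma 3.58.1 in R 4.3.3 (lmFit, eBayes with a trend, group as the only term), with Benjamini-Hochberg adjustment over all of them, after the procedure had been tested on simulated data. CHRM3 was compared by an exact permutation test. The members and lists were chosen with earlier results of these data known. Named were all 10 members, CHRM3, the most abundant gene and up to 4 called genes with the largest change of each list, the 3 nearest profiles of the leading member of each class, and genes that overlap a member (those under 1 TPM only as a count). Marker genes, and further genes of the lists chosen after their values were seen, were named as well. Motifs were searched in RefSeq promoters. Alternatives varied the pseudocount (0.1, 0.5), the limit (none, 0.1, 5 TPM), the scaling (median-of-ratios, quantile, totals without mitochondrial transcripts), the use of a trend, a replicate term, a GC content and length correction, the fold change limit and the left-out library. Protein sequences were not analysed here.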

Additional observations from a re-analysis of the deposited data

How the results depend on the processing

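LOXL1, PLOD2, P4HA1 and PLOD3 kept their direction and their call in all 18 alternatives tried for each, with log2 fold changes of 0.62 to 0.71, 0.82 to 0.90, 0.44 to 0.54 and -0.38 to -0.26. After median-of-ratios scaling the values were 0.0227 for LOX, 0.0373 for LOXL3, 0.0163 for PLOD1, 0.0330 for PPIB and 0.0261 for ZNHIT1, all reversed, -0.0269 for P4HA2, no longer called, and 0.1991, 0.2089 and 0.1397 for the log2 ratios of the summed lysyl oxidases, lysyl hydroxylases and P4H alpha subunits, against 0.129, 0.1388 and 0.0696 in TPM as deposited. Quantile scaling gave 0.0032 for LOX, 0.0501 for LOXL3, 0.0023 for PLOD1, 0.0151 for ZNHIT1 and -0.0544 for P4HA2. The correction for GC content and length, alone or with the replicate block, gave 0.0564 for LOXL3, 0.0282 for PLOD1, 0.0176 for PPIB, 0.0398 for ZNHIT1, 0.0049 for SERPINH1 (called at -0.0817 without it) and -0.0110 for P4HA2, and with the replicate block LOXL2 was at -0.0981 and not called. Without mitochondrial transcripts PLOD1 was called at -0.0659 and PPIB at -0.0496. P4HA2 was not called with no trend or with the replicate block, both at -0.0966, and ranged from -0.1099 to -0.0797 with single libraries left out. With the GC correction and the replicate block 1 member and 1846 genes were lower. With a fold change limit of 1 (log2, either sign), 0 members were lower, 0 members higher, 164 genes lower and 92 genes higher. Libraries of the groups were linked here by their number only. Deviations of same-numbered libraries correlated at -0.0198, 0.0341 and 0.0334, and those of differently numbered libraries at -0.0656 to 0.0336. These values do not settle whether libraries were prepared in pairs. With the replicate block 4007 genes passed in place of 4955. Of 1004 fits of other genes, those named and some of their lists, under an alternative, 944 gave the same direction and side of the threshold, 44 lost the call, 7 gained it and 9 turned. The causes were not tested. TPM keeps no depth, so the precision of low genes such as LOXL4 and CHRM3 is unknown.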
